A study of Mus musculus with 6 samples.

Results

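The spliceosome genes described here are those whose single annotated symbol begins with Snrp, Sf3a, Sf3b, Prpf or U2af, or with Lsm and a digit. They number 42 of the 16277 genes on the arrays, and all 42 were bright enough to be tested, among 11711 genes tested in all. RNA of whole livers was hybridised to Affymetrix mouse exon arrays, which read each gene with several probe sets. It came from 3 mice whose hepatocytes lack Srsf3 (SRSF3HKO) and, on 3 arrays, from WT littermates of the same age. All mice were 1 month old and untreated. SRSF3 is an SR protein, one of the factors that bind exons and guide splicing. The Srsf3 allele, the deleted exons and the Cre driver are not given in the sources used here, nor whether every WT array had its own mouse, and the p-values therefore cover the array-to-array spread, which may be technical. Whole liver also holds cells that keep Srsf3. In whole tissue, fewer cells of a type and less RNA per cell cannot be told apart.

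The spliceosome removes introns from newly made transcripts. It is built on small nuclear RNAs packed with proteins into snRNP particles. Sm proteins form a ring on U1, U2, U4 and U5 RNA, and a ring of Lsm proteins caps U6 RNA. U1 marks the start of the intron and U2AF its end, U2 settles on the branch point with the SF3A and SF3B complexes, and the joined U4, U5 and U6 particle, the tri-snRNP, brings in PRPF8, the large protein that holds the catalytic centre.

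The gene level is the median over a gene's probe sets of log2(intensity + 16), a scale that understates changes of dim genes. Every log2 change is SRSF3HKO minus WT, given with its SE or 95% interval from limma. Called means a limma p, adjusted over all genes tested by the Benjamini-Hochberg method, under 0.05. Median intensity over all probe sets was 81.5 to 89.6 on the SRSF3HKO arrays and 75.3 to 85.9 on the WT arrays, and the number of arrays limits the precision. Across genes, Pearson's r was 0.904 to 0.949 between SRSF3HKO arrays and 0.973 to 0.981 between WT arrays, so the SRSF3HKO arrays differed more from one another. The lowest r within the knockout group was between SRSF3HKO 1 and SRSF3HKO 2. The target gene Srsf3 had log2 values of 10.30, 9.10 and 9.78 in SRSF3HKO and 9.79, 9.24 and 9.35 in WT (limma adjusted p = 0.625), with 6 of its 13 tested probe sets called higher (log2 changes of 1.25 to 1.68) and none lower. Another 3 had lower means in SRSF3HKO without passing the test, probe sets 4625796 (-1.03, limma adjusted p = 0.0846), 5430400 (-0.998, limma adjusted p = 0.0771) and 5531798 (-0.89, limma adjusted p = 0.111), and in the first and second of these all SRSF3HKO arrays lay below WT. Whether these 3 lie in the deleted part was not analysed here. Y-linked Eif2s3y was bright on SRSF3HKO 3, WT 1 and WT 2 and below the detection floor on the other 3 arrays.

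Spliceosome genes tended to be higher in SRSF3HKO livers, by modest amounts. Of the 42 members, 33 had a positive log2 change and 9 a negative one, and the median was 0.42, against 0.08 over all genes tested, where 57.4% were positive. Members called higher were 4, namely Sf3b2, Snrpb2, Lsm8 and Lsm3, and none was called lower (by limma at an unadjusted p under 0.05 the counts were 15 higher and 1 lower). Over all genes, 6.85% were called higher and 5.03% lower, so 4 of 42 (9.52%) is close to the background. At the unadjusted threshold 17.6% of all genes were higher and 11.4% lower. The arrays of SRSF3HKO lay wholly above those of WT for 14 members, and wholly below for 1, Prpf8. Over all genes tested, 21.6% lay wholly above and 14% wholly below. The plot of changes by role shows the members on both sides of zero.

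**Figure D1:**
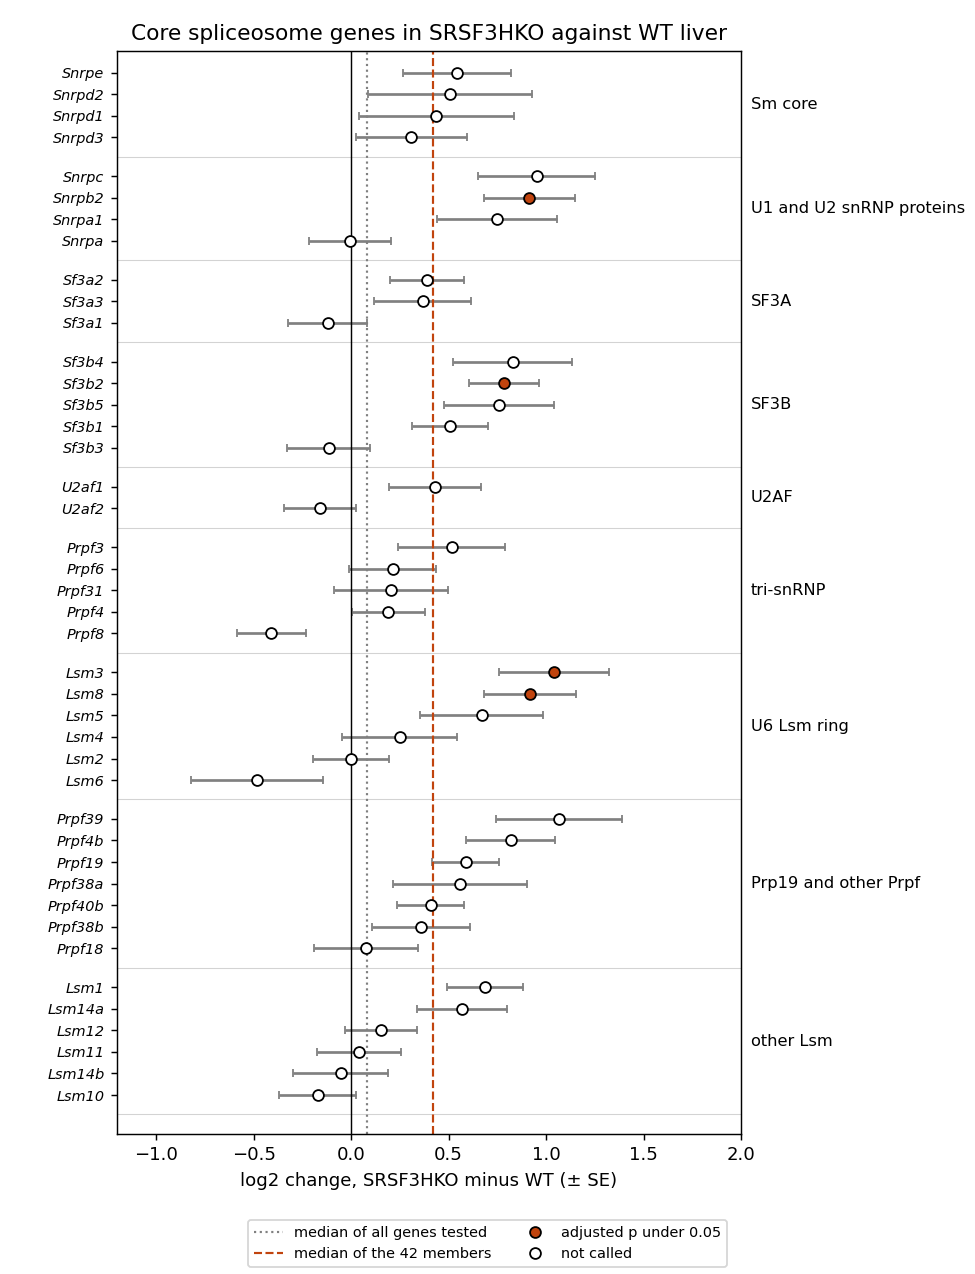
Log2 change of each of the 42 members (x axis, SRSF3HKO minus WT, from log2(intensity + 16), bars are ± SE, n = 3 arrays a group), grouped by role down the page. The 4 filled points are called, the median of the members is 0.42 (dashed) and that of all genes tested 0.08 (dotted).

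The count of calls depended on which array was left out. Without SRSF3HKO 2 it was 19 of 42 (45.2%), while 11.8% of all genes tested were called higher. Without SRSF3HKO 1 it was 1, Sf3b2, and without SRSF3HKO 3 or any of WT 1, WT 2 and WT 3 it was 0. The share of all genes called higher was 4.96% without SRSF3HKO 1 and 4.64% without SRSF3HKO 3. It was 0.976%, 0.895% and 1.9% without WT 1, WT 2 and WT 3, so few calls were made anywhere in the genome in those fits. No member was called lower in these fits. The genes called without SRSF3HKO 2 included all 4 of the full comparison. The median change of the members was 0.32 to 0.56 over these 6 fits, and 31 to 35 members were positive. With Y-linked signal added to the fit as a covariate none was called, at an unchanged 33 positive members. Within the arrays with Y-linked signal (1 SRSF3HKO, 2 WT) 35 members were positive with a median of 0.49, and within those without it (2 SRSF3HKO, 1 WT) 34 were positive with a median of 0.33.

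The 3 knockout arrays were not alike in these genes. The median deviation of the members from their WT mean was 0.62 on SRSF3HKO 1, 0.09 on SRSF3HKO 2 and 0.47 on SRSF3HKO 3. Over all genes the same medians were 0.11, 0.07 and 0.04. SRSF3HKO 2 was the lowest knockout array for 27 of the 42 members, against 39.1% of all genes, and SRSF3HKO 1 the highest for 25, against 34.3% of all genes. Leaving out the lowest knockout array of a gene must raise its change. Calls made without SRSF3HKO 2, here and below, are therefore no separate support for a rise. The plot by role shows that the low position of SRSF3HKO 2 was marked in the Sm core, while the medians of PRPF19 and other Prpf genes were alike on the 3 arrays.

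**Figure D2:**
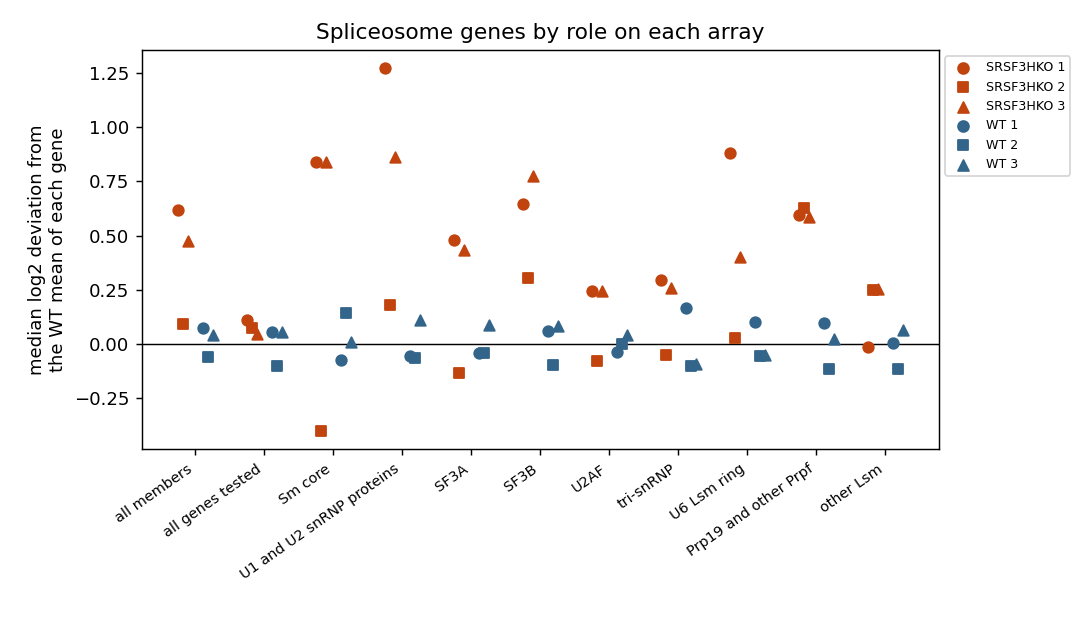
Median log2 deviation of the genes of each role from their own WT mean (y axis), for each of the 6 arrays (colours are genotypes, shapes replicates). For the Sm core the values are 0.84, -0.40 and 0.84 on SRSF3HKO 1, 2 and 3, and for PRPF19 and other Prpf genes 0.60, 0.63 and 0.59.

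Markers of other cell types also moved between these arrays. The summed intensity of 11 macrophage markers was 26500 on SRSF3HKO 1, 4436 on SRSF3HKO 2 and 5032 on SRSF3HKO 3, and 3743 to 4207 on the WT arrays, with 1 of the 11, Marco, called higher. The change was positive in 10 of the 11 and negative in 1, Timd4. Defining markers such as Adgre1 and Clec4f were above the detection floor on all 6 arrays. Both lay above WT on SRSF3HKO 1 (9.77 and 10.95) and below it on SRSF3HKO 2 and 3. There Adgre1 had 6.74 and 7.20, against 7.58 to 7.68 in WT, and Clec4f 8.09 and 8.99, against 9.11 to 9.42. Csf1r and Timd4 had the same pattern as these markers. Cd68, Marco, Lyz2, C1qa, C1qb and Vsig4 instead lay above WT on every SRSF3HKO array. Cd5l lay above WT on SRSF3HKO 1 and 3 and below it on SRSF3HKO 2. The sum of 9 hepatocyte markers was 77450 to 88640 in SRSF3HKO and 94600 to 99260 in WT, with Serpina1c called lower and albumin (Alb) at a log2 change of -0.02, and none was below the floor. The 8 endothelial markers summed to 1720 on SRSF3HKO 2, below the 3809 of SRSF3HKO 1, the 2755 of SRSF3HKO 3 and the 2954 to 4106 of WT. Clec4g was the brightest of them on every array, at 10.975, 9.166 and 10.734 in SRSF3HKO and 10.336, 10.315 and 10.958 in WT. Pecam1, Stab2, Lyve1, Cdh5 and Oit3 were higher on SRSF3HKO 2 than on SRSF3HKO 3, and Kdr, Egfl7 and Clec4g lower. The change over all arrays was positive in 2 of the 8 and negative in 6, with Kdr called lower. The 3 erythroid markers summed to 713 to 9845 in SRSF3HKO and 3020 to 10720 in WT, with Alas2 called lower, and the 6 cholangiocyte markers to 838 to 2988 in SRSF3HKO and 497 to 710 in WT. Spp1 was the brightest cholangiocyte marker on every array, at 11.41, 9.30 and 9.25 in SRSF3HKO and 8.68, 8.34 and 8.25 in WT. Of 5 tested cholangiocyte markers, 4 had positive changes and 1, Krt19, a negative one (-0.305), and none was called. The 9 stellate markers summed to 3967 to 6391 in SRSF3HKO and 3524 to 4491 in WT, with Col3a1 called lower and 5 of the 9 changes negative. Dcn was the brightest stellate marker on every array, at 12.105, 12.23 and 11.511 in SRSF3HKO and 11.007, 11.096 and 11.461 in WT, and made up most of each sum. The 8 lymphocyte markers summed to 155 to 560 in SRSF3HKO and 249.1 to 270.2 in WT. The 3 neutrophil markers summed to 65.9 to 268 in SRSF3HKO and 47.7 to 80.1 in WT. In these 5 lists between 0 and 6 markers were below the floor on an array. The part of these shifts in the spliceosome results was not tested.

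SF3B is the part of the U2 particle that clamps the branch point. Sf3b2, which codes for one of its large subunits, was the member with the lowest adjusted p. It had log2 values of 8.66, 8.94 and 8.79 in SRSF3HKO and 8.07, 8.02 and 7.94 in WT. The 3 knockout values lay close together and all above WT, and the gene rose 1.72-fold (log2 change 0.78 ± 0.18, limma adjusted p = 0.0307). Sf3b1, whose product contacts the branch site itself, had 9.73, 9.55 and 9.50 in SRSF3HKO and 9.25, 8.85 and 9.17 in WT. Its groups did not overlap, but it did not pass the test (0.51 ± 0.19, limma adjusted p = 0.128). Sf3b5 (0.76 ± 0.28) and Sf3b4 (0.83 ± 0.30) were likewise higher on every SRSF3HKO array and not called, and both were called without SRSF3HKO 2 (Sf3b5 1.04, limma adjusted p = 0.0142, and Sf3b4 1.09, limma adjusted p = 0.0339). Sf3b4 rests on 3 probe sets of which 1 had a negative change, and its value was 0.25 with a mean over them and 0.37 with a median polish. Sf3b3 was the exception in this complex, with 9.08, 8.88 and 8.50 in SRSF3HKO and 9.08, 8.84 and 8.89 in WT. Its groups overlapped, with a 95% interval of the log2 change from -0.60 to 0.37.

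Of the 4 members that code for U1 and U2 particle proteins, 1 was called. Snrpb2, the U2 protein that grips a stem loop of U2 RNA, had log2 values of 10.00, 9.37 and 9.45 in SRSF3HKO and 8.87, 8.45 and 8.75 in WT. It rose 1.89-fold (0.92 ± 0.23, limma adjusted p = 0.0414), with SRSF3HKO 1 the highest array. Its partner in the U2 particle, Snrpa1, had 9.40, 8.20 and 9.14 in SRSF3HKO and 8.11, 8.13 and 8.26 in WT. Here SRSF3HKO 2 fell inside the WT range, and the change of 0.75 ± 0.31 was not called (limma adjusted p = 0.151), although without that array it was 1.11 ± 0.17 (limma adjusted p = 0.0065). Snrpc, the U1 protein that helps U1 pair with the start of the intron, had 9.03, 7.82 and 8.49 in SRSF3HKO and 7.45, 7.42 and 7.62 in WT. SRSF3HKO 2 was again the lowest knockout array, but here it lay above WT. Its change was 0.95 ± 0.30 (limma adjusted p = 0.0766), and 1.26 ± 0.21 without SRSF3HKO 2 (limma adjusted p = 0.00848). Snrpa, the other U1 protein gene among the members, had 8.20, 7.78 and 8.13 in SRSF3HKO and 7.86, 7.99 and 8.28 in WT, with a change of -0.01 and an interval of -0.49 to 0.48.

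The Lsm ring of U6 held the other 2 calls. Lsm3 had log2 values of 9.06, 7.96 and 8.59 in SRSF3HKO and 7.58, 7.53 and 7.38 in WT, and rose 2.06-fold (1.04 ± 0.28, limma adjusted p = 0.0496). This call stood at the edge of the threshold and ended with any other pseudocount or scaling tried (limma adjusted p = 0.0508 to 0.0651). Lsm8, the subunit that sets the nuclear ring apart from the cytoplasmic one, had 8.58, 7.85 and 8.02 in SRSF3HKO and 7.35, 7.10 and 7.25 in WT, and rose 1.89-fold (0.92 ± 0.23, limma adjusted p = 0.0415). With a mean over probe sets or a median polish in place of the median it was 0.82 or 0.76 and not called (limma adjusted p = 0.0553 and 0.0808). The changes within the ring ranged from 1.04 to -0.48, and differences between its genes were not tested. Lsm5 had a change of 0.67, Lsm4 of 0.25 and Lsm2 of -0.00 with an interval of -0.45 to 0.44. Lsm5 was called without SRSF3HKO 2 (1.03, limma adjusted p = 0.0153). Lsm6 was the lowest of all members at -0.48 ± 0.34 (limma adjusted p = 0.388), with SRSF3HKO 2 far from the rest. Its values were 8.94, 7.74 and 9.07 in SRSF3HKO and 9.07, 9.02 and 9.11 in WT, so that SRSF3HKO 2 lay far below WT, SRSF3HKO 1 slightly below and SRSF3HKO 3 within its range. Without SRSF3HKO 2 the change of Lsm6 was -0.06 (limma adjusted p = 0.827).

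**Figure D3:**
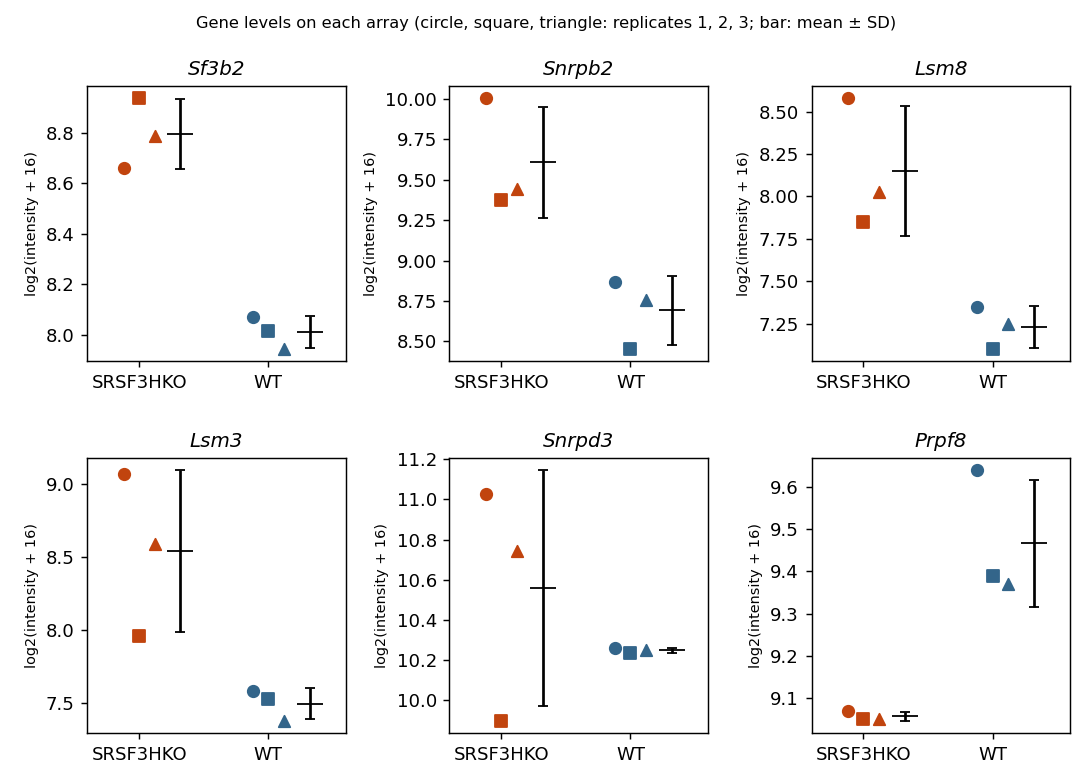
Gene level on each array (y axis, log2(intensity + 16), scaled to each gene) for the 4 called members and for Snrpd3 and Prpf8, with SRSF3HKO left of WT. Shapes are replicates and the bars give the mean ± SD of 3 arrays. The groups are apart for Sf3b2, Snrpb2, Lsm8 and Lsm3, Snrpd3 lies below WT only on SRSF3HKO 2 (9.90), and the 3 SRSF3HKO values of Prpf8 lie between 9.05 and 9.07.

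The 5′ flanks are shown for the 4 called genes, which were picked by the call alone. They did not share an order of the knockout arrays. Sf3b2 was highest on SRSF3HKO 2, while Snrpb2, Lsm8 and Lsm3 were lowest there. Each line gives the 100 bases before the annotated start, 5′ to 3′ on the gene's strand, from RefSeq's GRCm38.p6. Capitals mark matches, on either strand, to the GC box (GGGCGG), the core of an ETS site (CCGGAAG), the CCAAT box (CCAAT), the TATA box (TATAAA) or the NRF1 site, and no matches overlap in these 4 stretches.
Sf3b2, chr19:5295458-5295557, minus strand: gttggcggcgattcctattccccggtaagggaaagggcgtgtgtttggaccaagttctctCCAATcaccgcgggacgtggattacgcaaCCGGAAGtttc
Snrpb2, chr2:143062969-143063068, plus strand: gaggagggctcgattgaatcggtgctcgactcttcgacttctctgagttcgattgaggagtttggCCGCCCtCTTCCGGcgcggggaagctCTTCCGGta
Lsm8, chr6:18848535-18848634, plus strand: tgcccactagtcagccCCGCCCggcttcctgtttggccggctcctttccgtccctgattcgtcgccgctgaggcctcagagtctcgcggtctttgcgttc
Lsm3, chr6:91515935-91516034, plus strand: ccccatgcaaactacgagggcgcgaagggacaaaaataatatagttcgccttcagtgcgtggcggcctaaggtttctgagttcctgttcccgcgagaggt
Sf3b2 and Snrpb2 hold the ETS core, Snrpb2 in 2 copies, and Lsm8 and Snrpb2 the GC box, while Lsm3 holds none of these letters. Of the members, 34 had an entry among 27025 genes with a promoter sequence. All members were bright enough to be tested, while the 27025 include genes that were not. The shares below therefore do not compare the members with other genes detected in liver, and whether those differ from the members was not tested. The ETS core was present in 8 of the 34 (23.5%) and in 4.69% of all promoters, the GC box in 16 (47.1%) and 25.2%, and the CCAAT box in 10 (29.4%) and 19.6%. The TATA box was present in 1 (2.94%, Sf3b3) and 5.95%, and the NRF1 site in 0 and 0.544%. Median GC content of the window was 62% in the members and 55% over all promoters. A match is a stretch of letters and not a shown binding site.

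The Sm core, the ring shared by most snRNPs, had no call among its 4 measured genes. Snrpd3 had log2 values of 11.03, 9.90 and 10.74 in SRSF3HKO and 10.26, 10.24 and 10.25 in WT. SRSF3HKO 1 and 3 lay above the tight WT values and SRSF3HKO 2 below them, for a change of 0.31 ± 0.28 (limma adjusted p = 0.515). Snrpd1 had 7.54, 5.96 and 7.36 in SRSF3HKO and 6.78, 6.23 and 6.53 in WT, the same order of arrays. Snrpe (0.54 ± 0.28) and Snrpd2 (0.51 ± 0.42) also had SRSF3HKO 2 as the lowest knockout array. Without it, all 4 were called, at log2 changes of 0.64 for Snrpd3 to 0.99 for Snrpd2 (limma adjusted p = 0.0291 and 0.0421). Since it was the lowest knockout array for all 4, leaving it out had to raise their changes. None of the 4 was called without SRSF3HKO 1 or without SRSF3HKO 3 (limma adjusted p = 0.428 to 0.894).

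U2AF and SF3A showed no call with all arrays, while U2af1 (0.65, limma adjusted p = 0.0386) and Sf3a3 (0.62, limma adjusted p = 0.0383) were called without SRSF3HKO 2. U2af1, the small subunit that reads the AG at the intron's end, had 8.58, 8.07 and 8.86 in SRSF3HKO and 8.07, 8.13 and 8.01 in WT (0.43 ± 0.23, limma adjusted p = 0.264). U2af2, the large subunit that binds the pyrimidine tract, had 7.74, 7.60 and 7.46 in SRSF3HKO and 7.68, 7.70 and 7.90 in WT, a change of -0.16 with an interval of -0.58 to 0.27. It rests on 3 probe sets, and of the 2 tested 1 had a positive and 1 a negative change. With a mean or a median polish over probe sets its change was -0.037 or -0.034. The groups overlapped for both subunits. In SF3A, which joins SF3B on U2, Sf3a2 was at 0.39 ± 0.19, Sf3a3 at 0.37 ± 0.25 and Sf3a1 at -0.12 ± 0.20. Only for Sf3a2 did the groups not overlap, with 7.30, 7.08 and 7.26 in SRSF3HKO and 6.61, 6.95 and 6.91 in WT.

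Prpf8 went the other way from most members. Its log2 values were 9.07, 9.05 and 9.05 in SRSF3HKO and 9.64, 9.39 and 9.37 in WT, a change of -0.41 ± 0.18 that was not called (limma adjusted p = 0.17). The negative sign held in each of its 47 tested probe sets, which ranged from -0.75 to -0.04 and none of which was called. These probe sets read the same 6 RNA samples and are not independent. The other tri-snRNP members measured had positive changes, with Prpf3 at 0.52, Prpf6 at 0.21, Prpf31 at 0.21 and Prpf4 at 0.19, and overlapping groups. Prpf3, Prpf4 and Prpf31 code for proteins of the U4/U6 side of this particle and Prpf6 for a bridge to U5. Prpf3 had 7.53, 6.55 and 7.27 in SRSF3HKO and 6.62, 6.41 and 6.77 in WT, and was called without SRSF3HKO 2 (0.80 ± 0.20, limma adjusted p = 0.0328).

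The group of PRPF19 and other Prpf genes had 7 positive changes of 7 and no call. Prpf19, the ubiquitin ligase that gives the activating Prp19 complex its name, had 10.23, 10.21 and 10.22 in SRSF3HKO and 9.73, 9.70 and 9.47 in WT. The knockout values were almost equal and all above WT, and the change was 0.59 ± 0.17 (limma adjusted p = 0.062). All 16 of its probe sets had a positive change, from 0.43 to 0.94. Prpf39, which codes for a U1-associated protein, had the highest change of all members, 1.07 ± 0.32 (limma adjusted p = 0.0674). Its values were 7.76, 8.63 and 7.73 in SRSF3HKO and 7.27, 6.46 and 7.20 in WT, so that SRSF3HKO 2 was high and WT 2 low, and the change was 0.77 without SRSF3HKO 2 and 0.81 without WT 2. Prpf4b, the gene of a kinase that acts on spliceosome proteins, had 8.60, 8.49 and 8.42 in SRSF3HKO and 7.95, 7.26 and 7.85 in WT (0.82 ± 0.23, limma adjusted p = 0.0545). Prpf38b and Prpf18 were highest on SRSF3HKO 2, at 8.75 and 8.58, while Prpf38a was lowest there at 7.18. Prpf40b, another U1-associated protein gene, was at 0.41 ± 0.17.

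The remaining Lsm genes work largely outside the spliceosome. Lsm1, which replaces Lsm8 in the cytoplasmic ring of mRNA decay, had 7.79, 7.74 and 8.11 in SRSF3HKO and 7.28, 7.06 and 7.23 in WT. The groups did not overlap, and the change of 0.69 ± 0.20 missed the threshold (limma adjusted p = 0.0559). Lsm14a, a component of P bodies, was at 0.57 ± 0.23, and its relative Lsm14b at -0.05 ± 0.24. Lsm10 and Lsm11, which replace Sm proteins in the U7 particle of histone mRNA processing, were at -0.17 ± 0.20 and 0.04 ± 0.21, and Lsm12 at 0.16 ± 0.19. Without these 6 Lsm genes and Prpf4b, 28 members were positive and the count of calls was still 4.

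Single probe sets were tested in the same way. The members had 562 probe sets, of which 528 were bright enough to test. In limma over 157764 probe sets, 28 of the 528 were called higher, close to the background of 4.73%, and none lower (background 4.32%). At an unadjusted limma p under 0.05, 147 of the members' probe sets were higher and 13 lower, against 14.8% and 11.1% of all probe sets. Probe sets of 1 gene read the same RNA samples and are not independent. Of the 28, Sf3b2 had 9, Prpf4b 8 and Snrpb2 5, Prpf39 2, and Lsm3, Lsm8, Prpf40b and Snrpc 1 each. Leaving out 1 array gave between 0 (without WT 1 or WT 2) and 98 (without SRSF3HKO 2) called higher. Without WT 3, SRSF3HKO 3 or SRSF3HKO 1 there were 1, 7 and 9. In Snrpb2 all 9 probe sets had changes between 0.83 and 1.39. The highest, probe set 5562458, had intensities of 1954, 1073 and 1417 in SRSF3HKO and 579, 422 and 644 in WT (limma adjusted p = 0.0173). Sf3b1 had 28 of 28 tested probe sets positive, from 0.18 to 0.89, with none called, while 20 of 29 in Sf3b3 were negative.

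**Figure D4:**
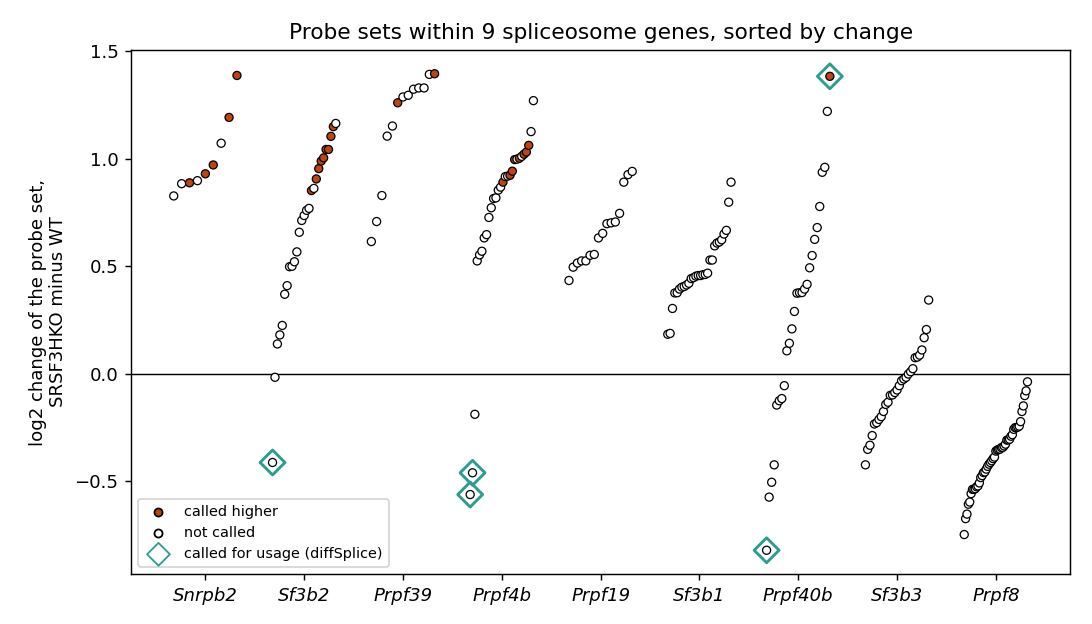
Log2 change of every tested probe set (y axis) in 9 members chosen after their values were seen, sorted within each gene. Filled points are called higher, and diamonds mark probe sets called for usage by diffSplice. All 47 points of Prpf8 lie below zero, and single probe sets of Sf3b2 (-0.41) and Prpf4b (-0.46 and -0.56) lie apart from the rest of their gene.

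Usage compares how 1 probe set moved with how the rest of its gene moved, and it could be tested in 521 probe sets of 38 members. With limma's diffSplice 5 of the 521 passed, 1 used more and 4 used less in SRSF3HKO. This is close to the background of 0.662% of 142800 probe sets over all genes. Sf3b2 probe set 5378881 had intensities of 43.4, 93.5 and 72 in SRSF3HKO and 91.5, 89.9 and 102 in WT. The value of SRSF3HKO 2 lay within the WT range and those of SRSF3HKO 1 and 3 below it, while 25 of the gene's 27 probe sets had positive changes, for a usage change of -1.11 (diffSplice adjusted p = 4e-04). Among these 5 calls it was the only one to hold with each array left out in turn (diffSplice adjusted p up to 0.0446). In Prpf4b, probe set 5050046 had 1122, 2656 and 1227 in SRSF3HKO and 2298, 2472 and 2098 in WT, a usage change of -1.35 (diffSplice adjusted p = 0.00882). SRSF3HKO 2 stood above WT there and the other knockout arrays well below it. Prpf4b probe set 5070572, with 112, 149 and 63 in SRSF3HKO and 149, 148 and 144 in WT, had a usage change of -1.24 (diffSplice adjusted p = 0.022). In Prpf40b, probe set 4840235 was used more (1.14, diffSplice adjusted p = 0.0426), with 226, 88.8 and 157 in SRSF3HKO and 69.1, 47.5 and 29.8 in WT. Its probe set 5495900 was used less (-1.15, diffSplice adjusted p = 0.037), with 39.8, 20.4 and 57.2 in SRSF3HKO and 76.7, 56 and 107 in WT. Both Prpf40b probe sets were dim. The 20.4 of SRSF3HKO 2 in 5495900 and the 29.8 of WT 3 in 4840235 lay below the probe set floor. The per-array splicing index, which takes each probe set's own spread where diffSplice pools the spread over a gene, called none of the 5 (limma adjusted p = 0.133 to 0.346). In simulated data diffSplice made more false calls than its adjusted p allows, so its p-values here may be too small. The count of usage calls was 1 without SRSF3HKO 1, 10 without SRSF3HKO 2, 3 without SRSF3HKO 3 and 2 without WT 1 or WT 3. Where in the genes these probe sets lie was not analysed here.

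Other genes of the splicing machinery, from 6 lists drawn by textbook role, were mostly higher in SRSF3HKO without passing the test. Of 102 tested, 13 were called higher (6.85% of all genes) and none lower (5.03% of all genes). The change was positive in 89 and negative in 13, with a median of 0.40, against 57.4% positive and a median of 0.08 over all genes tested. The median deviations on SRSF3HKO 1, 2 and 3 were 0.45, 0.34 and 0.38, so SRSF3HKO 2 stood less apart than in the members. Among genes of the U1 and U2 particles outside the prefixes, 2 of 19 were called higher. They were Rbm17 (1.21 ± 0.21, limma adjusted p = 0.0124) and Phf5a, which codes for a subunit of SF3B (0.89 ± 0.18, limma adjusted p = 0.0209). Of the tri-snRNP genes outside the prefixes, 3 of 12 were called higher, Txnl4b (1.23), Cd2bp2 (0.88) and Usp39 (0.76). Of 33 genes of the Prp19 complex and the catalytic stages, 4 were called higher. They were Srrm1 (1.45 ± 0.21, limma adjusted p = 0.00638), which codes for a splicing coactivator that binds SR proteins, Bcas2 (0.98), Syf2 (0.78) and Plrg1 (0.65). Bcas2 and Plrg1 code for partners of PRPF19. In the assembly and import of snRNPs 3 of 20 were called higher. Among them were Smn1 (1.29 ± 0.19, limma adjusted p = 0.00734), which loads Sm rings onto snRNAs, with 7.82, 7.45 and 7.58 in SRSF3HKO and 6.35, 6.46 and 6.15 in WT, and its partner Ddx20 (1.00). The third is listed as Sip1, a symbol that more than 1 gene has carried. Snrnp48 (0.94) was the call among 11 genes of the minor spliceosome, and none of 7 exon junction complex genes was called, with 7 positive changes. The total of 13 became 27 without SRSF3HKO 2, 8 without SRSF3HKO 3, 3 without WT 3, 2 without WT 1 or WT 2 and 5 with the Y-linked covariate.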

How the data were processed

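The deposited values are linear intensities of core exon probe sets, which the authors summarised with PLIER in Affymetrix Expression Console, per the submitters' processing notes; versions, background step and scaling are not given in the sources used here. The members, lists and tests were chosen with earlier results of these data known. Of 229581 probe sets, 208397 had 1 annotated symbol; outdated symbols were replaced through RefSeq names, while members were chosen by the annotated symbol. Intensities were transformed as log2(value + 16). A gene or probe set was tested if its average log2 value exceeded a detection floor, the 90th percentile of 1046 chemosensory receptor genes (olfactory, vomeronasal, taste), which was 5.35 for genes and 5.63 for probe sets. Genotypes were compared with limma 3.58.1 in R 4.3.3 (moderated test with mean-variance trend) and its diffSplice for genes with at least 3 tested probe sets. Both were tested on simulated data, where diffSplice made more false calls than its adjusted p allows. Named genes are every called member and, per role, the brightest, the largest rise and the largest fall; other members were added after their values were seen. Replicates are numbered in the order of the samples. Alternatives covered pseudocount, scaling, probe set summary, filter, variance model, threshold, Y-linked covariate, member rule, usage test and each array left out. Probe sets with several symbols, 30 with a symbol matching the rule, were kept apart.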

Additional observations from a re-analysis of the deposited data

How the results depend on the processing

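No paired analysis was possible because the labels give no number shared between the groups. The median change of the members stayed between 0.32 and 0.56 and no member was called lower in any alternative run. The 4 members called higher became 1 without the filter on dim genes, 12 with array weights, 0 at an adjusted p under 0.01 and 0 with the Y-linked covariate, and 0 to 19 with 1 array left out. The 28 probe sets called higher became 15, 86, 0 and 3 in the same order, and 0 to 98 with 1 array left out. Probe sets called lower were 4 with array weights and 0 to 6 with 1 array left out. The 5 usage calls became 3 with the Y-linked covariate, 0 by the splicing index and 1 to 10 with 1 array left out. The 13 other splicing genes called higher became 2 at an adjusted p under 0.01, 5 with the Y-linked covariate and 2 to 27 with 1 array left out. All genes called were 802 higher and 589 lower, 315 and 303 with the covariate, and 126 and 170 at an adjusted p under 0.01. Array weights gave 1265 and 892, and 1 array left out gave 106 to 1383 and 130 to 772. Signs turned for uncalled members near zero, with 1 array left out for Prpf18 (-0.2 without SRSF3HKO 2), Lsm14b (0.134 without SRSF3HKO 3), Lsm11 (-0.121 without WT 2 and -0.079 without SRSF3HKO 3) and Lsm2 (0.034 to 0.096 without SRSF3HKO 2, SRSF3HKO 3 or WT 1). Among members named by the rule, for which all alternatives were run, they turned for Lsm4 (-0.037 to 0.437 with 1 array left out, negative without WT 2), Sf3a1 (-0.248 to 0.02, positive without SRSF3HKO 2), Sf3b3 (-0.245 to 0.047, positive without SRSF3HKO 3) and Snrpa (0.077 with array weights, and -0.098 to 0.125, positive without SRSF3HKO 2 or WT 3). The cause was not tested. The number of arrays limits all counts.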

Other observations

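Of 30 probe sets annotated to several genes, one of which matches the prefixes, 28 were tested and none was called (limma), with log2 changes of -0.47 to 0.55 and a lowest adjusted p of 0.198. They are in none of the counts above.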
